A study of Mus musculus with 2 samples.

Results

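Adherent liver cells from CCl4-treated mice with and without a conditional deletion of Foxf1 were profiled by RNA-seq, and 6 genes are described here: Foxn3, Rabl2, C920009B18Rik, Apol7d, B230307C23Rik and 0610009L18Rik. They were selected on the values described here, because each had a transcript of more than 300 bases and a very large difference between the 2 libraries. They are 6 of the 38320 gene entries in each library, and each matched 1 entry. The deposited measure was FPKM, the number of fragments on a gene divided by transcript length and by the number of mapped fragments. Because the difference chose the genes, their values are a description and no test is given. The genes within 200 kb on the same chromosome served as controls.

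Adult male C57/Bl6 mice received CCl4, a hepatotoxin that causes liver fibrosis, for 5 weeks. One group was labelled Foxf1 fl/fl (Wild-type) and carried both floxed alleles without Cre. The other was labelled αSMACreER;Foxf1 fl/fl (Knockout) and is called αSMACreER;Foxf1-/- here, as in the study. Its Cre is inducible by tamoxifen and driven by the promoter of α-smooth muscle actin, so that deletion is directed to cells with an active αSMA promoter and not to every cell of the dish. Per the study's methods, tamoxifen was injected on consecutive days of each week from the second week on to start the deletion, and the study describes livers of both genotypes after CCl4 and tamoxifen. Controls were Foxf1fl/fl littermates, and both groups shared the floxed alleles and CCl4. Liver cell suspensions were plated for 2 h, the adherent cells were pooled within each genotype, and 1 library per genotype was sequenced with single-end reads of 75 bases. There are therefore no replicates, and no p-value can be given for any difference. Genotype cannot be told apart from anything else that differed between the 2 pools.

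The cells were labelled stromal. The stellate cell genes Des and Lrat were at 1.703 and 0.0778 FPKM in Foxf1fl/fl and at 3.29 and 0.111 in αSMACreER;Foxf1-/-. Acta2, which encodes α-smooth muscle actin, was at 7.77 and 5.65. The macrophage gene Cd5l was at 1391 and 1122 and Clec4f, a Kupffer cell lectin gene, at 1117 and 753. Some genes of both lists lay closer together. Dcn and Col1a1, matrix genes of stellate cells and myofibroblasts, were at 127 and 70.2 in Foxf1fl/fl and at 186 and 103 in αSMACreER;Foxf1-/-. The macrophage genes Vsig4 and Adgre1 were at 268 and 162 in Foxf1fl/fl and at 219 and 165 in αSMACreER;Foxf1-/-. The rest of both lists lay far apart. Pdgfrb and Reln, of the stellate cell list, were at 1.03 and 0.683 in Foxf1fl/fl and at 1.43 and 0.313 in αSMACreER;Foxf1-/-. Marco and Cd68, of the macrophage list, were at 1168 and 646 in Foxf1fl/fl and at 929 and 679 in αSMACreER;Foxf1-/-. In such a mixed sample, fewer cells of a type and less RNA per cell cannot be told apart.

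The 6 genes are of different kinds. Foxn3 is a forkhead transcription factor that acts mainly as a repressor, and Rabl2 is a small Rab-like GTPase that works with intraflagellar transport at the base of the cilium. The other 4 are poorly characterised loci, among them a pseudogene and antisense or divergent non-coding RNAs. Cufflinks, which made the values, divides reads among the annotated transcripts of a gene and adds the resulting FPKM over them. The same read therefore adds more FPKM to a gene if it is given to a short transcript than if it is given to a long one.

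In 4 of the 6 genes the annotation holds a transcript of at most 200 bases inside the deposited locus, in addition to much longer ones. Those 4 transcripts are shown because a single read placed on them carries several FPKM. They were read 5′ to 3′ from the GENCODE M21 transcripts (GRCm38), and capitals mark the 3 bases on each side of every splice junction.
Foxn3-204: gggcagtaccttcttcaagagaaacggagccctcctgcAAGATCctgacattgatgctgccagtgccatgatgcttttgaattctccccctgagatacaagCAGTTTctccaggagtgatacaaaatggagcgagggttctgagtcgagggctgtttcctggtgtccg
Rabl2-209: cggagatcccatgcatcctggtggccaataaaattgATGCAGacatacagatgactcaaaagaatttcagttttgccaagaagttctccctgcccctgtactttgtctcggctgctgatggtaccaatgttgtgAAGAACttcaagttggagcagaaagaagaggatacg
C920009B18Rik-204: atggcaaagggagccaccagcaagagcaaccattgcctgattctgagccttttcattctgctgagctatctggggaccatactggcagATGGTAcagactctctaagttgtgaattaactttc
B230307C23Rik-201: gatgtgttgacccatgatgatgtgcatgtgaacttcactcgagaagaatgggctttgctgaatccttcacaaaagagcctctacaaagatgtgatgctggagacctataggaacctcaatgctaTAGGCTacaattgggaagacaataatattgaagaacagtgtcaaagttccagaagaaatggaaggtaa

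Foxn3-204 spans chr12:99209503-99291277 on the minus strand with 3 exons and 168 bases, of which 105 are coding sequence in a protein-coding Foxn3 transcript. Rabl2-209 spans chr15:89583398-89584317 on the minus strand with 3 exons and 170 bases, all of them coding. C920009B18Rik-204 has 123 bases in 2 exons at chr10:22307208-22314196 on the plus strand, with no coding part. B230307C23Rik-201 has 192 bases in 2 exons at chr16:98008629-98009008 on the plus strand, and 189 of them are coding. Apol7d and 0610009L18Rik had no transcript this short, with 426 and 619 bases as their shortest.

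Foxn3 was higher in αSMACreER;Foxf1-/-. Its entry (ENSMUSG00000033713, chr12:99194980-99450111, minus strand, protein coding) was at 2.64 FPKM in Foxf1fl/fl and at 23.9 in αSMACreER;Foxf1-/-. After the libraries were scaled to each other by their median ratio, that was 8.92-fold higher, or 3.11 on the log2(FPKM + 0.1) scale on which all differences below are given. Of 12467 genes that had a transcript over 300 bases and averaged 1 FPKM or more, it ranked 55 by the size of the difference.

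C920009B18Rik had the widest gap of the 6. It is an unprocessed but transcribed pseudogene (ENSMUSG00000097352, chr10:22306702-22321765, plus strand) that lies among the Raet1 genes, which encode ligands of the natural killer cell receptor NKG2D. It was at 2.50 FPKM in Foxf1fl/fl and at 98.8 in αSMACreER;Foxf1-/-, 38.8-fold higher (log2 difference 5.22, rank 15).

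Apol7d was also higher. Despite its name it does not lie with the apolipoprotein L genes on chromosome 15. Its entry (ENSMUSG00000073652, chr1:71652837-71662843, plus strand) is annotated as an antisense RNA that starts across the 5′ end of Fn1, the fibronectin gene. It was at 20.8 FPKM in Foxf1fl/fl and at 124 in αSMACreER;Foxf1-/-, 5.86-fold higher (log2 difference 2.54, rank 105).

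B230307C23Rik showed the smallest difference of the 6. The protein-coding entry (ENSMUSG00000080717, chr16:97997323-98010000, plus strand) was at 7.82 FPKM in Foxf1fl/fl and at 28.9 in αSMACreER;Foxf1-/-. It was 3.63-fold higher (log2 difference 1.85, rank 244).

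The other two genes were lower in αSMACreER;Foxf1-/-. Rabl2 (ENSMUSG00000022621, chr15:89582533-89591923, minus strand, protein coding) was at 23.7 FPKM in Foxf1fl/fl and at 0.831 in αSMACreER;Foxf1-/-, 29.1-fold lower (log2 difference −4.70, rank 24). It was the only one of the 6 that went from above 20 FPKM to below 1.

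The long non-coding RNA 0610009L18Rik (ENSMUSG00000043644, chr11:120348678-120351190, plus strand) is transcribed away from Actg1, the gene of cytoplasmic γ-actin. It was at 4.76 FPKM in Foxf1fl/fl and at 0.592 in αSMACreER;Foxf1-/-, 8.18-fold lower (log2 difference −2.83, rank 71). It was the least abundant of the 6 in mean FPKM.

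**Figure D1:**
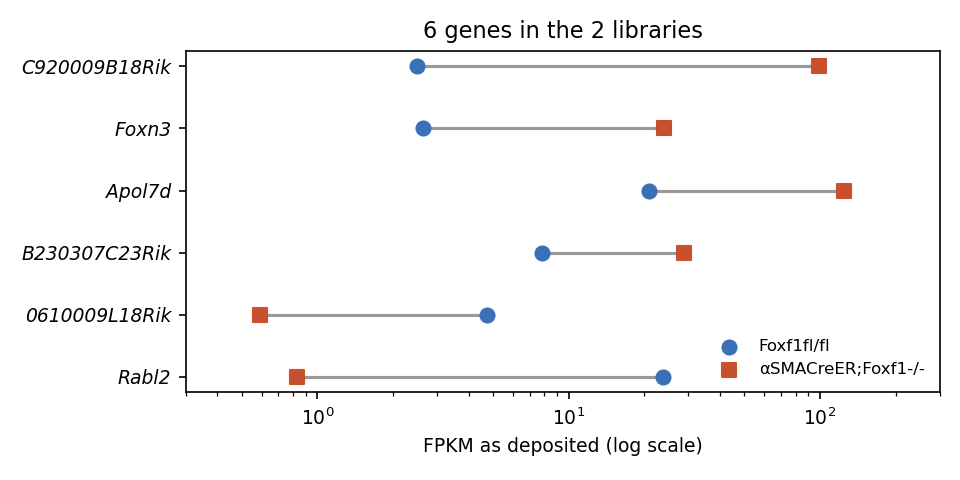
Deposited FPKM (horizontal log axis) of the 6 genes in the Foxf1fl/fl library (circles) and the αSMACreER;Foxf1-/- library (squares), 1 library each, with a line joining both values of a gene. The top 4 genes were higher and the bottom 2 lower in αSMACreER;Foxf1-/-, from 3.63-fold for B230307C23Rik to 38.8-fold for C920009B18Rik.

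All 6 lay past 1.5-fold, the threshold of the study's methods, with 4 higher and 2 lower. Among the 12467 genes, 12.2% were higher and 12.7% were lower by 1.5-fold or more, and nothing is read from the comparison since the differences chose the members. The median log2 difference of all these genes was 0.0053 and 192 of them (1.54%) lay past 4-fold. B230307C23Rik lay inside 4-fold and the other 5 beyond it. The genes ranked beside the members are similar in size of difference by construction, and are named as a description. Alox15 (log2 difference 1.85) stood beside B230307C23Rik, Abca8a (3.13) and Trbv13-1 (3.08) beside Foxn3, and Hist1h4h (−2.84) and Serpina11 (−2.81) beside 0610009L18Rik. Beside Apol7d stood an immunoglobulin κ V gene (−2.55) and Barx1 (−2.54). The genes next to C920009B18Rik, Trav9-4 and Hist1h4d, and those next to Rabl2, Igkv6-13 and Gm11399, were each listed at 0 in 1 library, so no fold is given for them.

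The most abundant genes with large differences included some of the members. Among genes that averaged 10 FPKM or more, C920009B18Rik and Rabl2 held places 1 and 2 by size of difference and Foxn3 place 8. Places 3 to 7 were held by 4 immunoglobulin V genes and by the lectin gene Cd209g. These places restate the differences that chose the members, and all 3 reached that average through their high library alone.

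**Figure D2:**
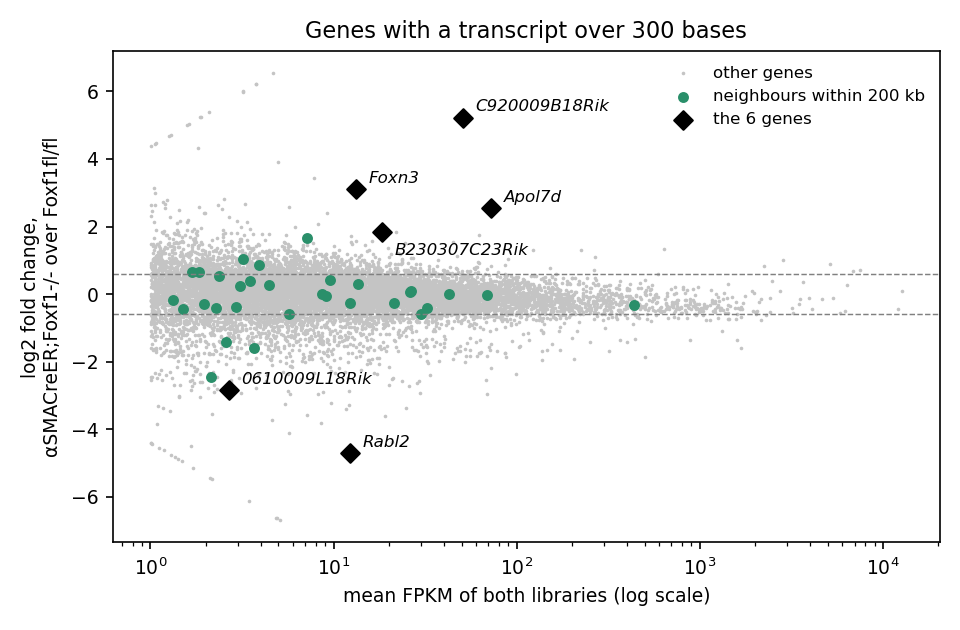
Log2 difference (αSMACreER;Foxf1-/- over Foxf1fl/fl, vertical axis) against mean FPKM (horizontal log axis) for 12467 genes (grey), the 31 neighbours within 200 kb (green) and the 6 members (diamonds); dashed lines mark 1.5-fold. The members lie between −4.70 for Rabl2 and 5.22 for C920009B18Rik, as chosen, and the neighbours between −2.45 and 1.65.

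The number of reads behind each difference depends on the transcript to which the reads belonged. Read counts were not used here, so the depth was estimated from the spacing of the low FPKM values of single-transcript genes, which gave about 9865000 mapped reads for Foxf1fl/fl and 11420000 for αSMACreER;Foxf1-/-. The estimate assumed fragments of 200 ± 80 bases (mean ± SD), and 70.1% of 1189 and 72.6% of 1384 low values came within 0.2 of a whole read, so read numbers are approximate. Intervals below are exact binomial 95% intervals of the log2 ratio, computed from read numbers rounded to whole reads, and cover counting error only. They show how the precision depends on the placement of reads and are no test, since the differences chose the genes.

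With all reads on the longest transcript of 2882 bases, the Foxn3 values would stand for 69.7 reads in Foxf1fl/fl and 732 in αSMACreER;Foxf1-/-, with an interval from 2.79 to 3.52. With all reads on the shortest transcript, where 1 read gives 5.74 and 4.96 FPKM, they would stand for 0.459 and 4.82 reads, with a lower bound of −0.36 and, since the first rounds to 0 reads, no upper bound. The same FPKM values thus gave a narrow interval in one case and an open one in the other. The second case is a limit of the calculation, because 0.459 is less than 1 whole read.

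For Rabl2 the longest transcript, of 1765 bases, gave 366 and 14.8 reads and an interval from −5.70 to −4.10. On the shortest, where 1 read gives 5.52 and 4.77 FPKM, there would be 4.30 and 0.174 reads, and the upper bound would be 0.36 with no lower bound, as the second rounds to 0 reads. The pattern was that of Foxn3 with the direction turned.

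For C920009B18Rik the span was widest. Its longest transcript, of 4535 bases, gave 107 and 4891 reads and an interval from 5.00 to 5.57. On the transcript of 123 bases, where 1 read gives 15.8 and 13.6 FPKM, the same values would stand for 0.158 and 7.25 reads, with a lower bound of 0.29 and, as the first rounds to 0 reads, no upper bound.

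B230307C23Rik gave 173 and 741 reads on 2449 bases (interval 1.62 to 2.11). On its shortest transcript it gave 2.11 and 9.01 reads, with an interval from −0.34 to 5.18. In Foxn3, Rabl2 and C920009B18Rik the lower of both FPKM values stood for less than 1 read on the shortest transcript, whereas in B230307C23Rik both stood for more than 1. At the estimated depth, less than 1 whole read on that transcript alone could not give those lower values. The bounds of Foxn3, Rabl2 and C920009B18Rik on the shortest transcript are therefore limits of the calculation. Intervals for reads placed on different transcripts in each library are not given here. Which transcript received the reads was not analysed here, and its part in these differences was not tested.

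Apol7d and 0610009L18Rik depended less on this choice. Apol7d gave 204 and 1408 reads on its longest transcript of 1193 bases (interval 2.34 to 2.77). It gave 46.4 and 320 on its shortest (interval 2.11 to 3.04). The single transcript of 0610009L18Rik gave 19.6 and 2.83 reads, with an interval from −5.37 to −1.22. The few reads of 0610009L18Rik made its interval wider than either of those of Apol7d.

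**Figure D3:**
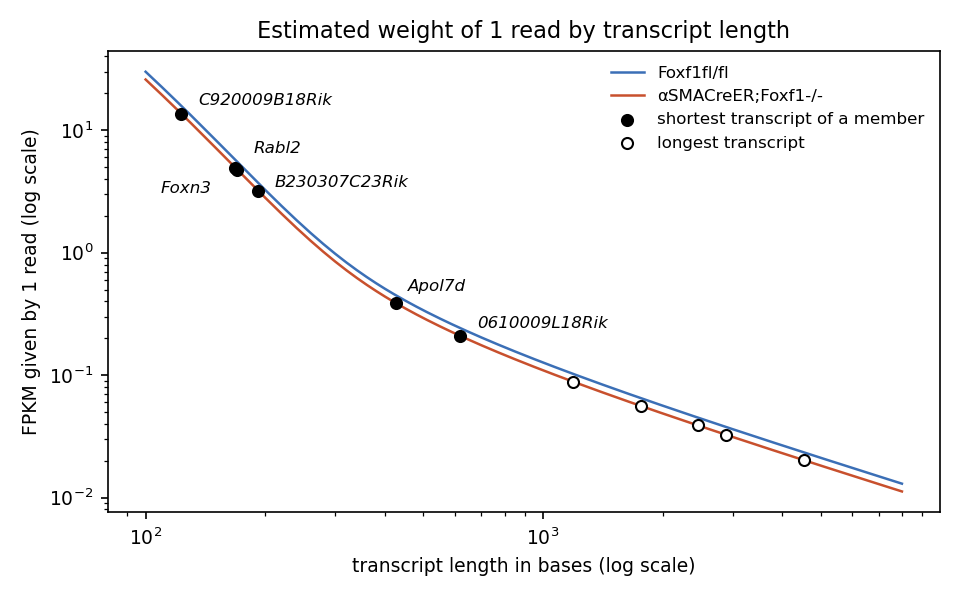
FPKM that 1 read would give (vertical log axis) against transcript length in bases (horizontal log axis) at the estimated depth of each library (lines). Filled points mark the shortest and open points the longest transcript of each member inside its deposited locus, drawn on the αSMACreER;Foxf1-/- line, where the value is 13.6 FPKM for the 123-base transcript of C920009B18Rik and 0.209 for 0610009L18Rik.

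As a class, genes with a short annotated transcript had a median difference close to that of other genes. Of 188 genes whose shortest transcript inside the deposited locus had at most 200 bases, 54 (28.7%) lay past 1.5-fold and the median absolute log2 difference was 0.33. Of 11655 genes whose shortest transcript was longer, 24.4% lay past 1.5-fold with a median of 0.32. Past 4-fold lay 4 of the 188 (2.13%) and 152 of the 11655 (1.30%), and 3 of the 4 were Foxn3, Rabl2 and C920009B18Rik. The fourth was Gm14295, whose shortest transcript has 192 bases and which went from 3.27 FPKM in Foxf1fl/fl to 0.0499 in αSMACreER;Foxf1-/-. Without the members, 50 of 184 genes of this class (27.2%) lay past 1.5-fold and 1 (0.543%) past 4-fold, against 1.29% past 4-fold among those with longer transcripts. Leaving out the members takes away 3 of the 4 genes past 4-fold by construction, since the members were chosen for their differences. No conclusion is drawn from the lower share that remains. The class was defined after the values were seen.

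The neighbours of the 6 genes were taken as controls. Since the members were chosen for their differences, a smaller difference in a neighbour follows from that choice and is given as a description. Within 200 kb lay 60 entries that did not overlap a member, of which 12 were at 0 in both libraries and 31 had a mean FPKM of at least 1. Of these 31, 5 were higher and 4 lower by 1.5-fold or more (29.0% in all, against 24.9% of the 12467 genes). Their median log2 difference was −0.04, with a range from −2.45 to 1.65. Neighbours past 1.5-fold lay on both sides of 0.

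Rabl2 had 6 such neighbours, all at lower coordinates. The nearest was Shank3, a synaptic scaffold gene, at 12.2 FPKM in Foxf1fl/fl and 15.1 in αSMACreER;Foxf1-/-. The antisense RNA C230037L18Rik followed Rabl2 in direction, from 3.66 to 0.598 (log2 difference −2.45), and lay 97686 bases away. Cpt1b, which carries fatty acids into mitochondria in muscle, went the other way, from 3.36 to 10.95 (1.65). Its neighbour Chkb, a choline kinase gene whose transcripts can run on into Cpt1b, was at 69.2 and 68.7.

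C920009B18Rik had 4. The antisense RNA Gm26740, 3867 bases away, was at 1.28 FPKM in Foxf1fl/fl and 2.10 in αSMACreER;Foxf1-/- (0.64), the only one of the 4 past 1.5-fold. Raet1d, an NKG2D ligand gene on the other side, was at 1.75 and 1.28, and Hmgb1-ps8 at 1.40 and 1.26. E030030I06Rik was at 8.54 and 8.75. The 4 pointed in both directions.

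The single expressed neighbour of Apol7d, the purine synthesis gene Atic, was at 9.13 FPKM in Foxf1fl/fl and 9.01 in αSMACreER;Foxf1-/- (−0.04). Foxn3 had no neighbour to compare, since neither of the 2 entries within 200 kb reached a mean FPKM of 1.

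B230307C23Rik had 3 neighbours, all higher in αSMACreER;Foxf1-/- and 1 past 1.5-fold. Zbtb21, a zinc-finger gene, was at 8.12 FPKM in Foxf1fl/fl and 11.1 in αSMACreER;Foxf1-/- (0.42), and C2cd2 at 2.78 and 3.38 (0.25). Prdm15, a gene of the PRDM family of zinc-finger factors, was at 2.04 and 4.405 (1.05). They shared the member's direction.

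The densest surroundings were those of 0610009L18Rik, with 17 neighbours of which 2 were higher and 3 lower past 1.5-fold. Actg1, separated from it by 135 bases, was at 481 FPKM in Foxf1fl/fl and 391 in αSMACreER;Foxf1-/- (−0.33). The divergent pair was therefore lower on both sides, by 1.5-fold or more on the side of the non-coding RNA alone. On the other side, Faap100, a gene of the Fanconi anaemia pathway, was at 6.83 and 4.59 (−0.59), and Nploc4, a cofactor gene of the segregase p97, at 25.5 and 27.7.

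Farther from 0610009L18Rik, Gcgr, the hepatocyte glucagon receptor gene, was at 5.59 FPKM in Foxf1fl/fl and 1.80 in αSMACreER;Foxf1-/- (−1.61). The antisense RNA Gm11789, whose locus overlaps that of Gcgr on the opposite strand, was at 3.79 and 1.39 (−1.41). Ccdc137 was at 2.72 and 5.16 (0.87) and Bahcc1 at 1.38 and 2.28 (0.66). The 5 neighbours past 1.5-fold thus pointed in both directions.

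**Figure D4:**
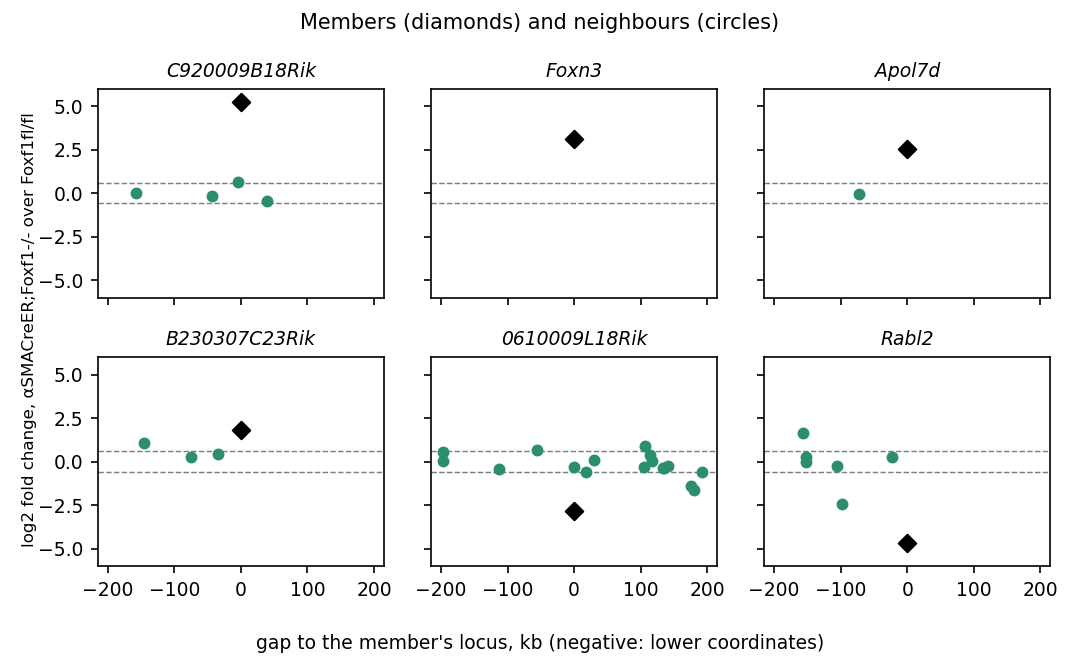
Log2 difference (vertical axis) of each member (diamond, at 0 kb) and of its neighbours with a mean FPKM of at least 1 (circles) against the gap between the loci in kb; dashed lines mark 1.5-fold. Neighbours range from −2.45 to 1.65, Foxn3 has none, and 0610009L18Rik has 17.

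Some entries overlapped a member. The strand setting of the quantification is not given in the sources used here, so reads from overlapping genes on opposite strands may have been divided between them. Fn1 shares 335 bases of its 5′ end with the Apol7d locus on the opposite strand and was at 127 FPKM in Foxf1fl/fl and 319 in αSMACreER;Foxf1-/- (1.30). Both were higher in the same library. Of the 826 bases of Apol7d-201, 146 are coding and 81 are untranslated sequence in Fn1 transcripts on the other strand. Of the 426 bases of Apol7d-204, 95 are coding and 102 untranslated sequence there. Apol7d-202 and Apol7d-203 hold none of either. Summed over both genes as FPKM times the length of the longest annotated transcript, the locus was 2.54-fold higher, against 5.86-fold for Apol7d alone. Apol7d made up 24.9 of the sum of 1084 (FPKM times kb) in Foxf1fl/fl, so that the first ratio is mainly that of Fn1. The part of Fn1 reads in the Apol7d values was not tested.

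Raet1e, a further NKG2D ligand gene, spans the whole of C920009B18Rik on the same strand and was at 0.522 FPKM in Foxf1fl/fl and 1.13 in αSMACreER;Foxf1-/- (0.96). The summed locus was 36.3-fold higher, close to the pseudogene alone. The 3 entries inside Foxn3 (3300002A11Rik, Gm19898 and Gm20682) and C030010L15Rik, which overlaps B230307C23Rik by 97 bases, were listed at 0 in both libraries. No entry overlapped Rabl2 or 0610009L18Rik.

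Because 0610009L18Rik and Actg1 start from the same short interval, that interval is shown. It was read from GRCm38.p6 (chr11:120348543-120348677, plus strand), with capitals marking a CArG box, the element bound by serum response factor, and then the reverse complement of CCAAT.
Actg1 to 0610009L18Rik: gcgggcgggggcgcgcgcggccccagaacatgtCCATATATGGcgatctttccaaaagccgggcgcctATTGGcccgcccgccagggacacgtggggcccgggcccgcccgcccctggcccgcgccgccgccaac

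Motifs were also searched on both strands of the RefSeq promoters of GRCm38.p6, from 250 bases before to 50 after each start, for the 5 members that had one there (all but Apol7d). The CArG box was present in that of 0610009L18Rik and in 1.63% of 32851 promoters. CCAAT was found in B230307C23Rik and 0610009L18Rik and in 37.4% of all promoters. TATAAA was found in C920009B18Rik and in 13.6% of all. The forkhead core TAAACA was in none of the 5 and in 13.4% of all, which says only that these letters are not in these windows.

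Families and partners of the named genes are given from short lists, which were chosen with earlier results of these data known. Their counts past 1.5-fold stand beside 12.2% higher and 12.7% lower, with a median of 0.0053, among all 12467 genes. Of 9 other genes listed with Foxn3 as family members, partners or reported targets, 7 had a mean FPKM of at least 1, of which 1 was at least 1.5-fold higher and 0 lower, with a median of −0.04. That one was Sin3a, a corepressor scaffold gene, at 8.80 FPKM in Foxf1fl/fl and 18.03 in αSMACreER;Foxf1-/- (1.001). The closest relative measured, Foxn2, was at 9.99 and 11.4 (0.16), while Foxn1 and Foxn4 were listed at 0 in both. The remaining differences were −0.32 for E2f5, −0.08 for Myc, −0.05 for Snw1, −0.04 for Pim2 and 0.30 for Men1.

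The pathway of Rabl2 was measured in the same way. Of 23 other genes for its centrosomal partners, Rab-like proteins and the IFT-B complex of intraflagellar transport, 17 had a mean FPKM of at least 1, of which 1 was higher and 2 lower past 1.5-fold, with a median of −0.15. Cep19, which recruits RABL2 to the ciliary base, was at 2.50 FPKM in Foxf1fl/fl and 1.44 in αSMACreER;Foxf1-/- (−0.78). Its partner Cep350 was at 4.23 and 8.74 (1.004), and Fgfr1op at 6.08 and 7.85 (0.34).

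Among the most abundant genes of that list, the IFT-B subunit gene Ift46 was at 35.7 FPKM in Foxf1fl/fl and 20.9 in αSMACreER;Foxf1-/- (−0.80), and Ift20 at 33.7 and 23.7 (−0.54). Rabl6, a Rab-like gene, was at 22.4 and 24.8. The 17 ranged from −0.80 to 1.004.

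Of 12 other apolipoprotein L genes, all on chromosome 15, 4 had a mean FPKM of at least 1, and 3 of them were lower past 1.5-fold. Apol9b was at 3.93 FPKM in Foxf1fl/fl and 1.78 in αSMACreER;Foxf1-/- (−1.12), Apol9a at 3.29 and 1.73 (−0.91) and Apol7a at 1.32 and 0.779 (−0.71). Apol7c was at 1.40 and 1.46. Apol7d on chromosome 1 was higher where these 3 were lower. Below that level, Apol7b was at 0.0528 and 0.364 and Apol7e at 0.205 and 0.585, both higher in αSMACreER;Foxf1-/-. Apol10b, Apol11b, Apol8, Apol10a and Apol11a were all under 0.66 FPKM in both libraries, and Apol6 was listed at 0.

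The genes with the most similar pair of values, by distance in the plane of log2(FPKM + 0.1) of both libraries, were Trbv13-1 (distance 0.20) and Iqcb1 (0.63) for Foxn3. They were 2 immunoglobulin heavy chain V genes (0.65 and 0.87) for Rabl2 and Trbv13-1 (1.93) and Foxn3 (2.04) for C920009B18Rik, which had the most distant ones. For Apol7d they were Pnrc2 (0.57) and Iqsec1 (0.90), for B230307C23Rik Tfrc (0.23) and Slc15a2 (0.36), and for 0610009L18Rik Dhrs13 (0.24) and Elane (0.28). With 2 libraries a likeness rests on 2 values a gene.

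Markers of several cell types differed between the same 2 libraries as the 6 genes, and their counts past 1.5-fold also stand beside 12.2% higher and 12.7% lower among all 12467 genes. Hepatocyte markers were lower past 1.5-fold for 5 of 5 genes, summing to 3124 FPKM in Foxf1fl/fl and 1164 in αSMACreER;Foxf1-/-, with Alb the most abundant at 2292 and 912. Neutrophil markers were lower past 1.5-fold for 3 of 3, summing to 1894 and 760, with S100a9 at 1258 and 504 and Ly6g at 9.82 and listed at 0. These are the same direction as Rabl2 and 0610009L18Rik.

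Of the 5 stellate cell and myofibroblast markers that averaged 1 FPKM or more, 1 (Des) was higher and 0 were lower past 1.5-fold. The sum of all 7 was 208 and 300 FPKM, with Dcn at 127 and 186. T cell markers were higher past 1.5-fold for 1 (Cd4) of 4, summing to 26.7 and 39.6. Kupffer cell and macrophage markers were lower past 1.5-fold for 1 (Clec4f) of 6, summing to 4753 and 3868. None of 5 endothelial (517 and 494), 4 cholangiocyte (58.0 and 49.4) and 3 B cell markers (34.8 and 37.3) passed 1.5-fold, with Clec4g (254 and 187), Krt19 (39.7 and 29.5) and Cd79a (24.6 and 24.0) the most abundant. The part of these differences in cell content in the values of the 6 genes was not tested.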

How the data were processed

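The authors made FPKM per Ensembl gene with TopHat and Cufflinks, each with a status; versions and the strand setting are not given in the sources used here. The submitters' processing notes name mm10, TopHat and DESeq. Entries were matched to GENCODE M21 (GRCm38) by Ensembl ID, and 3 entries with a status other than OK were left out. αSMACreER;Foxf1-/- values were divided by the median ratio of 1.02 over the 12013 genes that reached 1 FPKM in each library. Differences were taken on log2(FPKM + 0.1), where 0.1 is a pseudocount, a scale that understates the change of low genes. FPKM are not counts, so no count test was used.

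Deposited FPKM were above 0 for 18112 entries in Foxf1fl/fl and 18854 in αSMACreER;Foxf1-/-. Depth was estimated as described with the values. Effective lengths followed the fragment length distribution that is Cufflinks' default for single-end reads; whether the authors used it is not stated. Transcripts were counted only where they lay inside the deposited locus.

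The genes named were the 6 members, entries overlapping them, the nearest 2 expressed neighbours on each side and all neighbours past 1.5-fold, the detected genes of short related lists (for the longest list the partners and the 3 most abundant), the 2 genes most alike and the genes ranked beside each member, of which 1 is not reported here. A few others were named after their values were seen, among them Gm14295, Chkb, E030030I06Rik and the abundant genes ranked by difference. The members and lists were chosen with earlier results of these data known. The targeted gene, Foxf1, is not analysed here. Depth and folds were first tested on simulated data. Alternatives changed the pseudocount, scaling, filter, window, threshold and length correction. The software was scipy 1.17.1, pandas 2.3.3, numpy 2.4.6 and matplotlib 3.10.9, run in Python 3.11.15.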

Additional observations from a re-analysis of the deposited data

How the results depend on the processing

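All 6 members kept their direction and lay past 1.5-fold with every pseudocount, scaling and length correction tried. With a pseudocount of 1 the log2 difference was 2.75 for Foxn3, −3.77 for Rabl2, 4.81 for C920009B18Rik and −1.86 for 0610009L18Rik, the last now inside 4-fold, and with the trend by transcript length removed it was 2.74 for Foxn3 and 2.86 for Apol7d. Equal FPKM sums as the scale put B230307C23Rik at 2.05, beyond 4-fold, shifted the overall median by 0.20, put the neighbours' median at 0.17, and gave 2671 genes higher and 1018 lower, against 1519 and 1585. Without a filter on low values 24 neighbours lay past 1.5-fold, with 3715 genes higher and 3120 lower. A filter at a mean of 5 FPKM left 2 neighbours, 607 higher and 884 lower, and at 2-fold 5 neighbours, 453 higher and 707 lower. A window of 100 kb held 4 neighbours past 1.5-fold and one of 500 kb held 21, with a median of −0.16. Changing the filter also changes how many neighbours and genes are examined, and changing the window how many neighbours. The numbers examined under those settings are not given here, so their counts cannot be read as shares or set against the main counts. On the same strand only, the Apol7d locus total was 5.86-fold higher, against 2.54-fold on either strand. Placing reads on the shortest transcript, an alternative chosen after seeing the data, moved the interval bound nearest 0 to −0.36 for Foxn3, 0.36 for Rabl2 and −0.34 for B230307C23Rik, with the sign turned in each. It moved that bound to 0.29 for C920009B18Rik and 2.11 for Apol7d. For Foxn3, Rabl2 and C920009B18Rik that placement left less than 1 whole read in the lower library, so their bounds are limits of the calculation. Fewer estimated reads are what all of these bounds rest on by construction. For the other changes the cause was not tested. No paired analysis was possible because there was 1 library a genotype.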
